A study of Rattus norvegicus with 6 samples.

Results

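Type 2 immunity is the branch of the immune response that is mounted against helminths and allergens at barrier tissues such as the lung. It was followed here through 10 genes taken by name from the deposited tables (Il33, Il1rl1, Tslp, Il4r, Il13ra1, Il13ra2, Arg1, Retnla, Il5ra and Gata3), all 10 of which were found among the 40995 genes of the count table. They were measured in whole lung of 3 wild-type (WT) rats and 3 rats of the crTMPRSS2 knockout (KO) line. The line carries a CRISPR/Cas9 edit of Tmprss2, the gene of a cell-surface serine protease that primes several respiratory viruses for entry. WT and KO rats were both of Sprague-Dawley background, neither group was treated, and the labels put the 6 libraries in 1 sequencing batch. The sources used here do not give age, sex, litter or the number of founders behind the KO line. The Y-linked genes Kdm5d, Eif2s3y and Uty were read in all 6 libraries, and each was lowest in WT replicate 1, at 0.657, 0.425 and 0.472 of the mean of the other 5 in CPM (the count of a gene scaled to the size of its library).

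In the lung, epithelial, endothelial and stromal cells release the alarm cytokines IL-33 and TSLP, which act on group 2 innate lymphoid cells, mast cells and Th2 cells through receptors such as ST2, the product of Il1rl1. GATA3 is the transcription factor that sets the type 2 programme in these lymphoid cells, and their IL-5 acts on eosinophils through IL-5 receptor alpha (Il5ra). IL-4 and IL-13 signal through IL-4 receptor alpha (Il4r) paired with the common gamma chain or with Il13ra1, and the signal reaches the nucleus through STAT6. Il13ra2 binds IL-13 and acts mainly as a decoy, while Arg1 (arginase) and Retnla (the secreted protein RELM-alpha) are classical markers of macrophages exposed to IL-4 and IL-13.

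The libraries held 29933359 to 36895162 counted reads. WT replicate 1 stood apart: its summed level of 10 striated muscle markers was 8861 CPM against 90.8 to 394 CPM in the other 5 libraries, and its sum of 10 squamous epithelium markers was 3632 CPM against 2.33 to 7.99 CPM. It was lower than all other libraries for Il1rl1, Il13ra1 and Arg1 and higher than all others for Il4r, and over all tested genes it was lowest for 37.3% and highest for 36.4%. Each of the 10 genes is therefore given with all 6 libraries and again without WT replicate 1, where only 2 WT rats remain. For several genes of the wider lists that passed only without WT replicate 1, the fold change of that fit alone is given. Where a second WT library was left out as well, 1 WT rat remained, the spread came from the KO libraries alone, and the lone rat is assumed to vary like them. Tmprss2 itself had 50.5, 62.0 and 65.7 CPM in WT replicates 1 to 3, against 46.1, 56.4 and 47.0 CPM in the KO replicates. With all 6 libraries the groups overlapped through WT replicate 1 (log2 fold change of KO over WT -0.25, edgeR adjusted p = 0.508). Without WT replicate 1 the KO libraries lay below the 2 WT libraries, as did 17.5% of all tested genes. The log2 fold change was then -0.36 (SE 0.09, edgeR adjusted p = 0.0589, DESeq2 adjusted p = 0.0122). A difference of this size, seen only without that library, does not check the labels. Sftpc, a surfactant gene that defines lung, was read at 8325 to 15408 CPM.

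Of the 10 genes, 9 passed the filter on low counts and were tested, and Il5ra did not. With all 6 libraries 0 of the 9 passed edgeR's quasi-likelihood test at a Benjamini-Hochberg adjusted p under 0.05, a threshold that 0.0542% of all tested genes passed (0.0379% lower and 0.0162% higher in KO). Il4r and Retnla, 2 of the 9, had an unadjusted p under 0.05, against 11.3% of all tested genes (6.29% lower and 5.04% higher). DESeq2 on the same counts called those 2 genes, against 2.73% of all genes. Without WT replicate 1, edgeR called 3 of the 9 (Il4r and Retnla lower in KO, Gata3 higher), against 3.99% of all tested genes. In that fit 2.34% of tested genes passed as lower and 1.65% as higher. An unadjusted p under 0.05 was reached there by 5 of the 9, Il33 and Il1rl1 in addition, against 17.8% of all tested genes (9.28% lower and 8.52% higher). DESeq2 called 4 of the 9 there, Il33 in addition, against 6.51% of all genes. WT and KO libraries did not overlap for 3 of the 9 with all 6 libraries, against 22.8% of all tested genes, and for 6 of the 9 without WT replicate 1, against 34.6%. The median log2 fold change (KO over WT) of the 9 was 0.06 with all 6 libraries and -0.0042 without WT replicate 1, beside -0.0029 and 0.0036 over all tested genes. With all 6 libraries 4 of the 9 lay below 0 and 5 above.

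**Figure D1:**
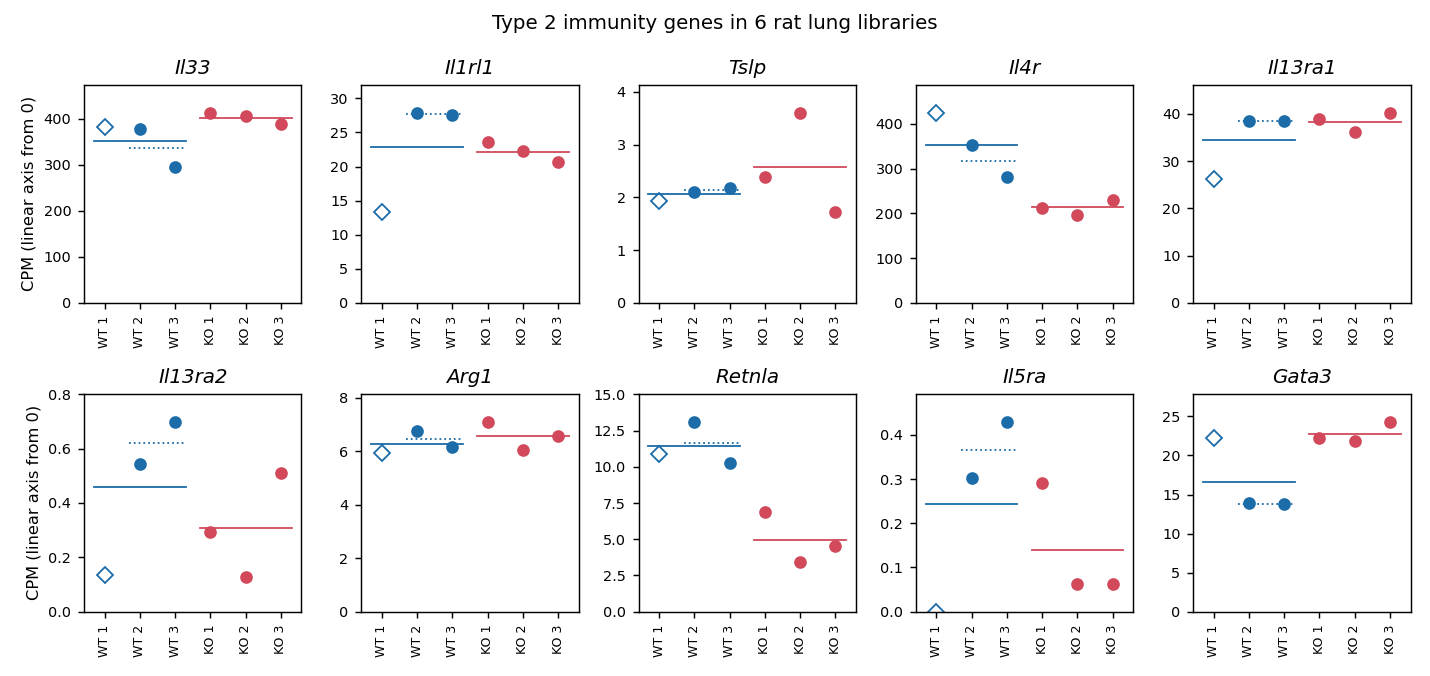
CPM of each of the 10 genes (y axis, linear from 0) in the 3 WT (blue) and 3 KO (red) libraries; the open diamond is WT replicate 1, solid lines are means of 3 libraries and the dotted line is the mean of WT replicates 2 and 3. All 3 KO points lie below all 3 WT points for Il4r and Retnla, and Gata3 in WT replicate 1 (22.3 CPM) sits with the KO libraries (21.9 to 24.3 CPM).

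Levels of different genes were compared per length, as FPKM (fragments scaled to gene length and library size). Over the 6 libraries Il4r had the highest mean (74.8 FPKM), followed by Il33 (48.9), Retnla (12.4), Il13ra1 (9.89), Gata3 (4.62), Arg1 (3.45), Il1rl1 (2.04), Tslp (1.68), Il13ra2 (0.162) and Il5ra (0.0458). The ranges of neighbours overlapped for Il4r and Il33, Retnla and Il13ra1, Gata3 and Arg1, Il1rl1 and Tslp, and Il13ra2 and Il5ra. Within a library Il13ra2 was above Il5ra in all 6, Il4r above Il33 in 5 of 6, and the first of the other 3 pairs above the second in 3 or 4 of 6. Between the pairs the ranges did not overlap. Per length, every library held more mRNA of the alarm cytokine Il33 than of its receptor Il1rl1: the FPKM ratio was 41.2, 19.4 and 15.4 in WT replicates 1 to 3 and 25.0, 26.0 and 26.8 in KO replicates 1 to 3.

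To show the regulatory sequence next to the genes whose levels the results turn on, the 250 bases before the annotated RefSeq start are given. They are from build GRCr8, written in the direction of transcription, for the 3 genes that passed the test without WT replicate 1 and for Il1rl1. The Il1rl1 window holds a match to the STAT6 type of site, and a window of Il33 with a GATA type of match is not shown. Windows were found for 8 of the 10 genes. They were searched on both strands for the STAT6 type of site TTCNNNNGAA and for the GATA type of site AGATAA or TGATAA, and capitals mark a match. The windows lie at chr1:189545525-189545774 (plus strand) for Il4r, chr11:65426187-65426436 (minus strand) for Retnla, chr17:73553298-73553547 (plus strand) for Gata3 and chr9:50203388-50203637 (plus strand) for Il1rl1.
Il4r: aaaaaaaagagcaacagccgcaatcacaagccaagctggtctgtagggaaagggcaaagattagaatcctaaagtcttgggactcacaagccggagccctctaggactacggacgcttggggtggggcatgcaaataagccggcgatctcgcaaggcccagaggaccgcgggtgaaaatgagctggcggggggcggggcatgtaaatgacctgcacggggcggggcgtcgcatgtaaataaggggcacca
Retnla: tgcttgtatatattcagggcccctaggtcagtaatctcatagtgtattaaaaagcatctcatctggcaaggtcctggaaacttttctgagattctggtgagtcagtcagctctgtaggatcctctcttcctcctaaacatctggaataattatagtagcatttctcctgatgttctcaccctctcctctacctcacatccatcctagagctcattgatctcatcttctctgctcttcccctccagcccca
Gata3: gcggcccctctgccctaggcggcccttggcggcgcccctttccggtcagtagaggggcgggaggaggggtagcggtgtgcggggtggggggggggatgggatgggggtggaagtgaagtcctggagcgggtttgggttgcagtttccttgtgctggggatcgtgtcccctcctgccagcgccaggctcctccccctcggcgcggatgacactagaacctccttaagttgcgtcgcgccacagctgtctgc
Il1rl1: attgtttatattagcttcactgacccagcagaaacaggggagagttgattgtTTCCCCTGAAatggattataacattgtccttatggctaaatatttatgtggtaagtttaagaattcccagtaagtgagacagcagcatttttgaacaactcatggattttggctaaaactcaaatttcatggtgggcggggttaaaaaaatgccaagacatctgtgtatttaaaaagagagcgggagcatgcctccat
TTCNNNNGAA was found in the Il1rl1 window, starting 198 bases before the start, and in 6.25% of all 33469 RefSeq windows. A GATA type of site was found in 1 of the 10 member windows, the first of 2 start sites of Il33, and in 16.9% of all windows. Neither was found in the windows of Il4r, Retnla or Gata3. The windows of Il4r and Gata3 are rich in G and C (57.2% and 68.4%, median over all windows 51.2%), with 15 and 17 CG pairs, while that of Retnla has 44.8% and 0 CG pairs.

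Il33 encodes the alarm cytokine IL-33, which is kept in the nucleus and released on cell damage. The gene (chromosome 1, 227701964 to 227736374 of mRatBN7.2) gave 382, 377 and 296 CPM in WT replicates 1 to 3, against 411, 406 and 388 CPM in the KO replicates. All 3 KO libraries lay above all 3 WT libraries, with WT replicate 3 the lowest; 11.4% of all tested genes were likewise higher in KO without overlap. The means were 352 ± 48.3 and 402 ± 12.0 CPM (SD, n = 3 each), a 1.14-fold difference. The log2 fold change of 0.19 (SE 0.12) did not pass (edgeR adjusted p = 0.557), nor did that of 0.26 (SE 0.09) without WT replicate 1 (edgeR adjusted p = 0.159). DESeq2 called Il33 in the latter comparison (adjusted p = 0.0435), and edgeR called it there when WT replicate 2 was left out too (log2 fold change 0.44, adjusted p = 0.0115), with WT replicate 3 then the only WT library. With WT replicate 3 left out in its place, the log2 fold change was 0.09 (edgeR adjusted p = 0.539), and 0.08 when it alone was left out of the 6, so the size of the difference rests on that library. Without the filter on low counts edgeR called Il33 in the 5 libraries (adjusted p = 0.00467). The summed level of 10 markers of alveolar type 2 cells, a lung source of IL-33 in rodents, was 48480, 31778 and 30296 CPM in WT and 27688 to 30140 CPM in KO, and that of 10 capillary endothelial markers was 5122 to 9527 and 5314 to 5518 CPM. The 10 fibroblast markers summed to 5990 to 10068 CPM in WT and 4659 to 4940 CPM in KO. In edgeR 0 of these 30 markers passed with all 6 libraries, and 8 had an unadjusted p under 0.05, against 11.3% of all tested genes. All 8 were lower in KO, against 6.29% of all tested genes. The log2 fold change was below 0 for 10 type 2 cell, 9 fibroblast and 8 endothelial markers with all 6 libraries. Those counts were 8, 9 and 4 without WT replicate 1. Without WT replicate 1, 2 type 2 cell and 3 fibroblast markers were lower, and of the endothelial markers 1 was lower and 1 higher. Over all tested genes 2.34% were lower and 1.65% higher there. No marker of the 3 lists was at 0 in every library, and their part in the Il33 level was not tested.

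Il1rl1, the gene of the IL-33 receptor ST2 and of its soluble decoy form, which gene totals do not separate, lies on chromosome 9 (42661694 to 42727266). It measured 13.3, 27.8 and 27.5 CPM (WT replicates 1 to 3) against 23.6, 22.3 and 20.7 CPM (KO replicates 1 to 3). WT replicate 1 had about 0.544 of the mean of the other 5 libraries, and the groups overlapped through it. The log2 fold change was -0.04 (SE 0.27, edgeR adjusted p = 0.947) with all 6 libraries. Without WT replicate 1 the 2 WT libraries lay above the 3 KO libraries, as did 17.5% of all tested genes, and the log2 fold change of -0.32 (SE 0.09, 95% interval -0.52 to -0.11) did not pass (edgeR adjusted p = 0.0894). Ligand and receptor mRNA thus had opposite signs in the 5 libraries, and edgeR called neither.

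Tslp, the other epithelial alarm cytokine (chromosome 18, 24447409 to 24454244), was a low transcript. It had values of 1.93, 2.11 and 2.17 CPM in the WT libraries (replicates 1 to 3) against 2.40, 3.59 and 1.72 CPM in the KO libraries, which is 54 to 114 reads per library. The KO libraries lay on both sides of the WT libraries, with KO replicate 2 the highest of the 6. The log2 fold change was 0.31 (SE 0.32, 95% interval -0.43 to 1.06, edgeR adjusted p = 0.683), and 0.26 (SE 0.33, adjusted p = 0.756) without WT replicate 1; it turned to -0.0095 and -0.05 when KO replicate 2 was left out. The values do not exclude a difference in either direction within the 95% interval of the 6-library fit.

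Il4r, the alpha chain shared by the IL-4 and IL-13 receptors, had lower levels in all 3 KO lungs. The gene (chromosome 1, 180115061 to 180139981) gave 423, 352 and 282 CPM in WT replicates 1 to 3, against 212, 197 and 231 CPM in the KO replicates. Every KO library lay below every WT library, with WT replicate 1 the highest of the 6; 11.4% of all tested genes were lower in KO without overlap. Means were 353 ± 70.6 CPM (WT) and 213 ± 17.0 CPM (KO; SD, n = 3 in both), 1.65-fold lower, and 1.49-fold lower against the 2 remaining WT libraries (317 ± 49.4 CPM). With all 6 libraries the log2 fold change of -0.73 (SE 0.16, 95% interval -1.10 to -0.35) did not pass in edgeR (adjusted p = 0.224) and passed in DESeq2 (adjusted p = 0.00558). Without WT replicate 1, Il4r fell by 0.57 on the log2 scale (SE 0.09, 95% interval -0.78 to -0.36, edgeR adjusted p = 0.0108). That call was lost when WT replicate 2 or KO replicate 2 was left out as well (log2 fold changes -0.40 and -0.51, edgeR adjusted p 0.0606 and 0.0607), and on log2 FPKM with limma (adjusted p 0.111 and 0.183 at pseudocounts of 1 and 0.1). In a bulk lung library fewer cells that carry a transcript cannot be told apart from less of it per cell.

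No partner of Il4r tested here passed. Il13ra1, its partner in the receptor for IL-13 (chromosome X, 115348860 to 115408682), measured 26.1, 38.4 and 38.5 CPM (WT replicates 1 to 3) against 38.8, 36.1 and 40.1 CPM (KO replicates 1 to 3). Leaving aside WT replicate 1, which was the lowest, the 5 libraries spanned 36.1 to 40.1 CPM and the groups overlapped. The log2 fold change was 0.16 (SE 0.16, edgeR adjusted p = 0.685), and -0.0042 (SE 0.08, 95% interval -0.17 to 0.16, adjusted p = 0.987) without WT replicate 1. The FPKM ratio of Il4r to Il13ra1 within a library was 15.7, 8.89 and 7.11 in WT and 5.31, 5.29 and 5.58 in KO. Il2rg, the common gamma chain, had log2 fold changes of 0.12 and 0.20 with and without WT replicate 1, and Stat6 of -0.10 and -0.04; neither passed in either fit (edgeR adjusted p 0.227 or higher).

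Il13ra2, the decoy receptor (chromosome X, 111002590 to 111074053), was near the limit of detection, with 4, 18 and 26 reads in WT and 9, 4 and 16 reads in KO replicates 1 to 3. The groups overlapped, and the log2 fold change of -0.58 (SE 0.73, 95% interval -2.29 to 1.14) did not pass (edgeR adjusted p = 0.736). Leaving out WT replicate 1, it was -1.0 (SE 0.65, 95% interval -2.44 to 0.45, edgeR adjusted p = 0.484). The KO libraries then lay below the 2 WT libraries, as did 17.5% of all tested genes. All 6 libraries together held 77 reads of Il13ra2. Single libraries moved the 6-library value: it was -0.15 without WT replicate 3, -0.20 without KO replicate 2 and -1.14 without KO replicate 3. Il5ra, the receptor chain of eosinophils for IL-5 (chromosome 4, 139630652 to 139664593), had 0, 10 and 16 reads in WT and 9, 2 and 2 reads in KO and was not tested. With all 6 libraries the groups overlapped through the 0 in WT replicate 1. Without that library the KO libraries lay below the 2 WT libraries, as did 17.5% of all tested genes. KO replicate 1 (0.291 CPM) was close to WT replicate 2 (0.302 CPM). The 0 in WT replicate 1 allows up to 0.102 CPM (3 independent reads; counting error only), and more if both mates of a pair were counted; the other 2 WT libraries had 0.302 and 0.429 CPM. The 9 eosinophil markers summed to 28.0 to 35.1 CPM in WT and 23.6 to 27.5 CPM in KO. Most of that came from Siglec5 and Alox15, which other lung cells also express. Of the 5 tested, 3 had a log2 fold change above 0 with all 6 libraries and 4 without WT replicate 1. Only Alox15 was called in edgeR, as lower without WT replicate 1, against 2.34% of all tested genes. Prg3 was at 0 in every library, Epx was read 7 to 29 times and Prg2 0 to 8 times.

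Retnla, whose product RELM-alpha is secreted by macrophages and airway cells under IL-4 and IL-13, was the member with the largest difference among those that passed. The gene (chromosome 11, 51961726 to 51963527, minus strand) had values of 10.9, 13.1 and 10.3 CPM in the WT libraries (replicates 1 to 3) against 6.90, 3.44 and 4.53 CPM in the KO libraries. All KO libraries lay below all WT libraries, as did 11.4% of all tested genes. KO replicate 2 was the lowest, and WT replicate 1 lay between the other 2 WT libraries. The means were 11.4 ± 1.48 and 4.95 ± 1.77 CPM (SD, n = 3 each), 2.31-fold lower in KO. With all 6 libraries the log2 fold change was -1.20 (SE 0.28, 95% interval -1.85 to -0.56), not a call in edgeR (adjusted p = 0.243) but one in DESeq2 (adjusted p = 0.00342). In the 5 libraries without WT replicate 1, Retnla fell by 1.24 on the log2 scale (SE 0.25, edgeR adjusted p = 0.0259); the call held without KO replicate 1 as well (adjusted p = 0.0105) and was lost without WT replicate 2, WT replicate 3, KO replicate 2 or KO replicate 3 (adjusted p 0.160, 0.0530, 0.0893 and 0.0681), where the log2 fold change lay between -1.40 and -1.03. In log2 FPKM with limma it did not pass either (adjusted p 0.129 and 0.204). Retnla was the 1 member listed in the authors' deposited table of 192 genes, with a log2 fold change of -1.21 and an adjusted p of 0.00315. The smallest absolute log2 fold change in the authors' deposited table is 1.00, and no other member reached that size in edgeR with all 6 libraries.

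Retnla is expressed by macrophages, and the 10 alveolar macrophage markers summed to 392 to 439 CPM in WT and 313 to 346 CPM in KO. Most of that came from Mrc1 and Ca4, and Ca4 is in the capillary endothelium list too. Of the 8 tested, 6 had a log2 fold change below 0 (median -0.28, over all genes -0.0029), and 0 passed with all 6 libraries in edgeR, where 3 had an unadjusted p under 0.05. All 3 were lower, against 6.29% of all tested genes. In the 5-library fit, Mrc1 and Krt79 were lower among 9 tested, against 2.34% of all tested genes. Marco, a defining marker of these cells, had at most 2 reads in any library, none of the 10 was at 0 in every library, and their part in the Retnla level was not tested. Arg1, the other macrophage marker of the IL-4 response (chromosome 1, 20475878 to 20488422), did not follow Retnla. It gave 5.92, 6.76 and 6.17 CPM in WT replicates 1 to 3, against 7.09, 6.05 and 6.57 CPM in the KO replicates, and the groups overlapped. Its log2 fold change was 0.06 (SE 0.17, 95% interval -0.33 to 0.46, edgeR adjusted p = 0.868), and 0.03 (SE 0.17, adjusted p = 0.962) without WT replicate 1. Within a library the FPKM ratio of Retnla to Arg1 was 4.71 to 5.48 in WT and 1.60 to 2.75 in KO.

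Gata3, the transcription factor of Th2 cells and group 2 innate lymphoid cells, was higher in KO than in WT replicates 2 and 3. The gene (chromosome 17, 68643760 to 68666000) measured 22.3, 13.9 and 13.7 CPM (WT replicates 1 to 3) against 22.3, 21.9 and 24.3 CPM (KO replicates 1 to 3). WT replicate 1 lay within the KO range and the groups overlapped, while the other 2 WT libraries were lower than the other 4. Without WT replicate 1, 17.1% of all tested genes were likewise higher in KO without overlap. In the fit of all libraries the log2 fold change was 0.46 (SE 0.21, 95% interval -0.03 to 0.94, edgeR adjusted p = 0.455), and DESeq2 did not call it either (adjusted p = 0.394). Once WT replicate 1 was left out, Gata3 rose by 0.72 on the log2 scale (SE 0.10, 95% interval 0.49 to 0.95, edgeR adjusted p = 0.00499), 1.65-fold from 13.8 ± 0.146 CPM (SD, n = 2) to 22.8 ± 1.28 CPM (SD, n = 3). With each of the 3 KO libraries left out in turn the edgeR adjusted p was 0.0156 to 0.0257. It was 0.0284 and 0.0285 with only 1 WT rat left, where the WT spread is not measured. The call was lost on log2 FPKM with a pseudocount of 0.1 (limma adjusted p = 0.0783).

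Gata3 is not particular to type 2 lymphocytes: T cells, natural killer (NK) cells and squamous epithelium express it too. The 10 matched T cell markers summed to 156 to 180 CPM in WT and 213 to 249 CPM in KO, and all 10 had a log2 fold change above 0 in both fits; edgeR called 0 of them with all 6 libraries (5 at an unadjusted p under 0.05) and 2, Cd8a and Lat, without WT replicate 1. The 11 NK cell markers summed to 37.9, 149 and 148 CPM in WT replicates 1 to 3 and to 268 to 282 CPM in KO, and without WT replicate 1 edgeR called 9 of 11 as higher (0 of 11 with all 6 libraries, 7 with an unadjusted p under 0.05). Of all tested genes, edgeR called 1.65% as higher without WT replicate 1. With all 6 libraries 5.04% were higher at an unadjusted p under 0.05. The squamous markers were high in WT replicate 1, the WT library with the high Gata3 value. No T cell or NK cell marker was at 0 in every library, and the part of any of these cells in the Gata3 level was not tested.

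**Figure D2:**
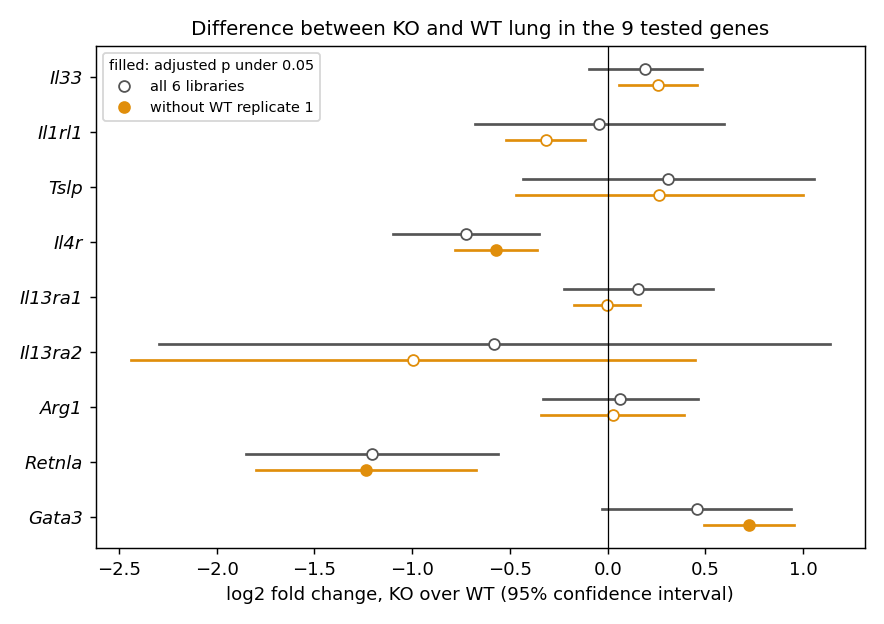
Log2 fold change of KO over WT (x axis) with its 95% confidence interval for the 9 tested genes, in edgeR with all 6 libraries (grey) and without WT replicate 1 (orange); filled points have an adjusted p under 0.05. The filled points are Il4r (-0.57), Retnla (-1.24) and Gata3 (0.72), all in the fit without WT replicate 1.

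**Figure D3:**
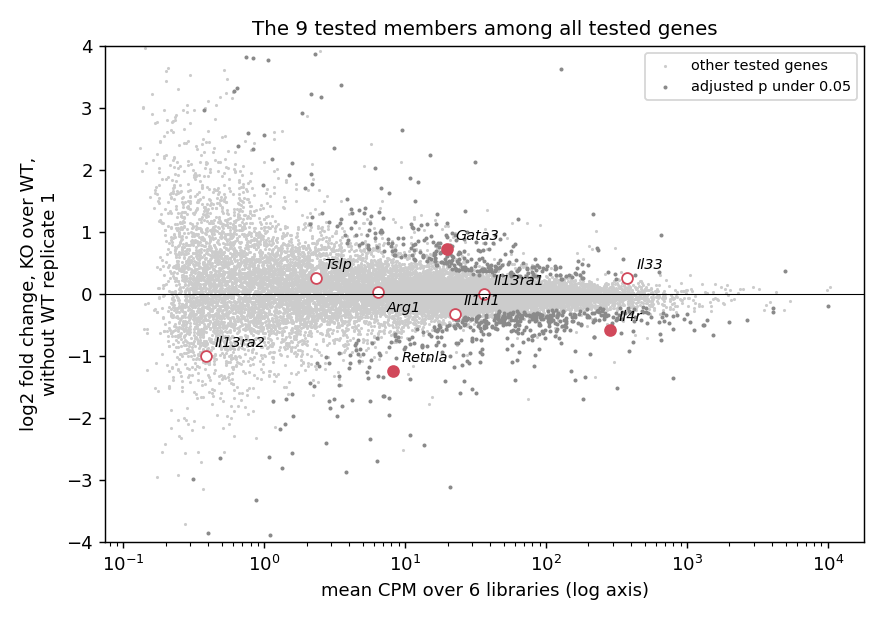
Log2 fold change of KO over WT without WT replicate 1 (y axis) against mean CPM over the 6 libraries (x axis, log scale) for all tested genes, with 20 genes beyond 4 log2 units not drawn; red circles are the 9 members, filled where the adjusted p is under 0.05, and dark grey points are the other genes under 0.05. Il33 and Il4r are the most abundant members, and Retnla is the filled point farthest from 0.

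The other genes of the pathway were taken from 5 lists. Of 10 type 2 cytokine genes only Areg, the EGF receptor ligand amphiregulin, and Csf2, which encodes GM-CSF, were abundant enough to test. Il9 and Il3 were at 0 in every library, Il13 had 1 read in all 6 libraries, Il5 had 5 reads and Il4 had 16, so changes in the ligands of Il4r were not detectable at this depth. Areg stood at 5.15 to 5.34 CPM in WT and at 1.04 to 1.52 CPM in KO. It did not pass with all 6 libraries (log2 fold change -1.95, SE 0.24, edgeR adjusted p = 0.0867) but passed without WT replicate 1 (-1.96, SE 0.25, edgeR adjusted p = 0.00287). Csf2 had log2 fold changes of -0.09 and -0.23 and did not pass.

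All 26 genes of the co-receptor and signalling list were tested. Over the 6 libraries 0 passed in edgeR and 2 had an unadjusted p under 0.05, against 11.3% of all tested genes, with a list median of 0.03. In the fit without WT replicate 1, 1 of the 26 passed, against 3.99% of all tested genes. It was Socs3, a feedback inhibitor of JAK and STAT signalling. It had values of 143, 76.5 and 55.7 CPM in the WT libraries (replicates 1 to 3) against 35.1, 43.1 and 49.7 CPM in the KO libraries, and it fell by 0.63 (SE 0.15, edgeR adjusted p = 0.0473), close to the threshold. The other genes with the smallest p were Il17ra, a chain of the IL-25 receptor, with log2 fold changes of 0.27 and 0.23, the signalling kinase Irak4 (0.25 and 0.25) and the receptor kinase Tyk2 (0.18 and 0.12), given with and without WT replicate 1 in turn; none of these 3 passed.

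Of 13 chemokine and prostaglandin D2 genes, 10 were tested with all 6 libraries and 11 without WT replicate 1, and 0 passed in edgeR in either fit. In each fit 1 had an unadjusted p under 0.05, against 11.3% and 17.8% of all tested genes. That gene was Ccl11, the eosinophil chemoattractant eotaxin, at 6.64, 12.1 and 7.96 CPM in WT and 18.4, 15.6 and 15.2 CPM in KO. The KO libraries lay above all WT libraries, as did 11.4% of all tested genes. The log2 fold change was 0.88 (SE 0.24, edgeR adjusted p = 0.279), or 0.71 in the 5 libraries (SE 0.18, edgeR adjusted p = 0.0589). Ccl17, a ligand of the Th2 cell receptor CCR4, had at most 1.13 CPM in any library, with log2 fold changes of -0.92 and -1.07. Ccl24, another eotaxin, had -0.52 and -0.30 and Ccr3, the eotaxin receptor, 0.92 and 0.45, and none of these passed.

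Of the genes known to respond to IL-4 and IL-13, more lay below than above 0. In the fit of all libraries 18 of 24 tested genes had a log2 fold change below 0 (median -0.18, over all genes -0.0029) and 1 passed in edgeR, the anion exchanger Slc26a4, at -2.43 (SE 0.22, adjusted p = 0.0269). Over all tested genes 0.0542% passed in that fit. In the 5 libraries without WT replicate 1, 18 of 25 were below 0 (median -0.29, over all genes 0.0036). Of the 25, 6 passed as lower and 1 as higher, against 2.34% and 1.65% of all tested genes. Slc26a4, which IL-13 induces in airway epithelium, gave 10.6, 10.1 and 7.67 CPM in WT replicates 1 to 3, against 1.52, 1.83 and 1.91 CPM in the KO replicates. Alox15, a lipoxygenase of macrophages and epithelium, stood at 14.7, 13.2 and 16.0 CPM in WT and 8.64, 10.2 and 6.54 CPM in KO. For both genes the KO libraries lay below all WT libraries, as did 11.4% of all tested genes. Alox15 fell by 0.78 (SE 0.18, edgeR adjusted p = 0.0448) without WT replicate 1.

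Of 8 airway basal and secretory cell markers, which summed to 4107 to 4936 CPM in WT and 5881 to 6508 CPM in KO, edgeR called 0 with all 6 libraries (3 lower and 2 higher at an unadjusted p under 0.05) and 2 as higher in the 5 libraries, Scgb1a1 and Scgb3a2. Over all tested genes 6.29% were lower and 5.04% higher at an unadjusted p under 0.05 with all 6 libraries. In the 5 libraries 1.65% were called as higher. None of the 8 markers was at 0 in every library, and their part in the Slc26a4 level was not tested.

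The macrophage genes Mrc1 (mannose receptor), Ccl6 (a chemokine) and Clec7a (the beta-glucan receptor dectin-1) fell by 0.46, 0.48 and 0.40 in the same fit, with edgeR adjusted p of 0.0221, 0.0151 and 0.0168. Postn, the matrix protein periostin, fell by 0.29 (SE 0.05, adjusted p = 0.0138); with all 6 libraries its log2 fold change was -0.09, and WT replicate 1 was low (374 CPM against 606 and 600 CPM in the other WT libraries). The 1 that rose was Fcer2, the low-affinity IgE receptor that IL-4 induces on B cells, from 5.64 and 3.73 to 8.42, 8.98 and 10.6 CPM in KO, by 1.00 (SE 0.21, adjusted p = 0.0280). Klf4, a transcription factor, had log2 fold changes of -0.50 and -0.39 with and without WT replicate 1 and did not pass. Of the airway mucus genes, Clca1 varied from 199 to 973 reads within the 6 libraries and Muc5ac had at most 11 reads. The alveolar macrophage list, which shares Mrc1, had the lower sum in KO as given above, and the part of those cells in these values was not tested.

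**Figure D4:**
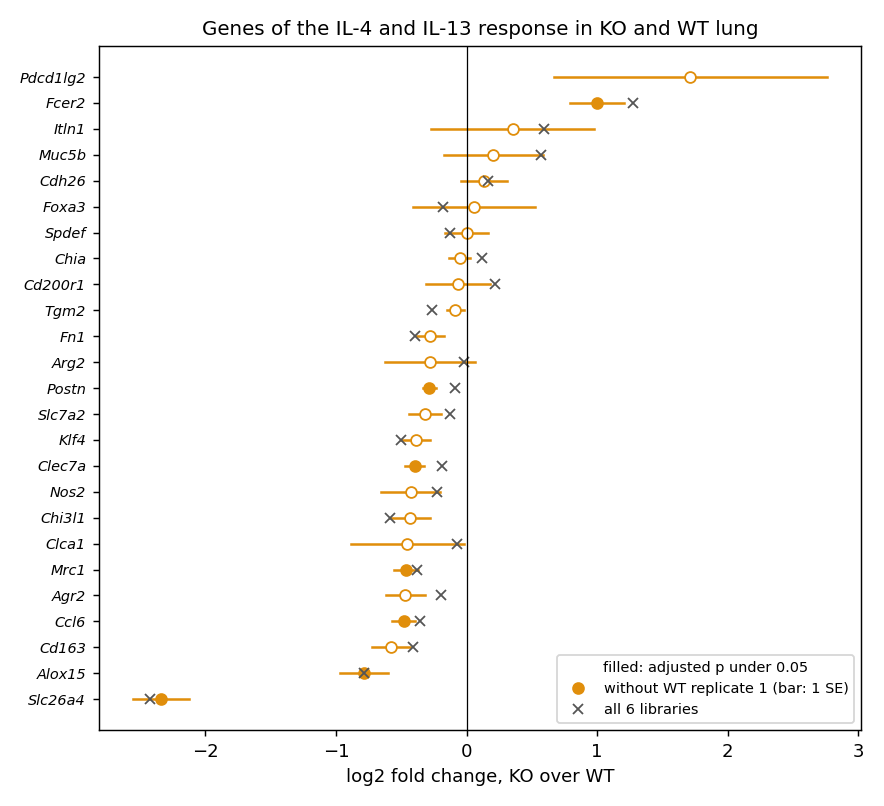
Log2 fold change of KO over WT (x axis) for the 25 tested IL-4 and IL-13 response genes, in edgeR without WT replicate 1 (orange circles with a bar of 1 SE, filled where the adjusted p is under 0.05) and with all 6 libraries (grey crosses; 24 genes). Filled points are Slc26a4, Alox15, Ccl6, Mrc1, Clec7a and Postn on the lower side and Fcer2 on the higher side.

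The list of Th2 and innate lymphoid transcription factors and surface markers held 17 tested genes. Over the 6 libraries 0 passed in edgeR, and the median was 0.16. An unadjusted p under 0.05 was reached by 1 lower and 4 higher, against 6.29% and 5.04% of all tested genes. In the 5-library fit described next, 1.65% of all tested genes passed as higher. In the 5-library fit the median was -0.0079, with 9 below 0 and 8 above, and 3 rose: Tcf7, a T cell and innate lymphoid transcription factor, by 0.40 (SE 0.10, edgeR adjusted p = 0.0481), Klrg1, a receptor of NK cells, T cells and activated innate lymphoid cells, by 1.13 (SE 0.26, adjusted p = 0.0405), and Ets1, a transcription factor of lymphocytes and endothelium, by 0.29 (SE 0.07, adjusted p = 0.0450). Klrg1 stood at 0.135, 1.54 and 1.39 CPM in WT and 2.99 to 3.38 CPM in KO. Gfi1 and Thy1, with log2 fold changes of 0.76 and -0.79, did not pass. These genes are shared with T cells and NK cells, whose marker sums were higher in KO as given above; their part in these values was not tested. Among 10 basophil and mast cell markers, 0 passed with all 6 libraries in edgeR (1 at an unadjusted p under 0.05, against 11.3% of all tested genes). Without WT replicate 1 only Kit passed, against 3.99% of all tested genes, and rose by 0.74 (SE 0.11, edgeR adjusted p = 0.00688). With all 6 libraries the log2 fold change of Kit was 0.44 (edgeR adjusted p = 0.505). Kit and Gata2, which lung endothelium expresses too, made up most of that list's sum of 363 to 535 CPM in WT and 490 to 523 CPM in KO, and the basophil protease Mcpt8 was read 280 to 771 times in all libraries with no call in either fit.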

How the data were processed

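Poly-A RNA of lung from 3 WT and 3 KO rats was sequenced as paired 150 base reads, per the labels. The submitters' processing notes name featureCounts 2.0.6, HISAT2 2.2.1, DESeq2 1.42.0, StringTie 2.2.3, CASAVA and the build mRatBN7.2, without roles or settings. How strand and reads with several matches were handled is not given in the sources used here. Deposited were raw read counts of 40995 genes and FPKM values. The authors' deposited comparison of KO with WT holds p-values, log2 fold changes and, for each library, a signal that is the count over a size factor. Low counts were more often even than odd in every library (3171 against 1641 genes in WT replicate 1), the pattern that counting both mates of each pair gives, so the fragments are fewer than the reads. No member's span overlapped that of another gene in the table.

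Counts were analysed with edgeR 4.0.16 in R 4.3.3: TMM, filterByExpr defaults (minimum count 10, minimum total 15), glmQLFit and glmQLFTest on genotype, and Benjamini-Hochberg adjustment over all 18464 tested genes (18994 without WT replicate 1). CPM uses TMM library sizes over all 6 libraries; SE is the absolute log2 fold change over the square root of F. Groups came from sample titles. The p-values measure the spread between these rats. Alternatives were DESeq2 1.42.0, limma 3.58.1 (voom, log2 FPKM), other scalings and filters, a robust fit, a replicate block and leaving out each library. On simulated data with known changes, unchanged genes made up a larger share of edgeR's calls than the adjusted p threshold allows, with and without WT replicate 1, so calls close to it are less certain than their adjusted p says. The simulated libraries differed only by size, random spread and the known changes, so none stood apart as WT replicate 1 does.

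The 10 genes and the 16 gene lists (208 symbols; 203 matched by name, 4 through RefSeq, 1 not matched) were chosen with earlier results of these data known. Named from each pathway list are genes that passed in either fit, otherwise up to 4 with the smallest p with all 6 libraries; Il2rg, Stat6, single cytokines, Clca1, Muc5ac, Epx, Prg2, Mcpt8, Prg3, Kdm5d, Eif2s3y and Uty were named after their values were seen. Promoter windows are RefSeq's, build GRCr8, used for sequence alone; gene coordinates are those of the deposited tables. Of the genes most like a member, 1 is not reported here.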

Additional observations from a re-analysis of the deposited data

How the results depend on the processing

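With all 6 libraries the number of genes changed was 10 in edgeR and 501 in DESeq2, 22 with limma on log2 FPKM (pseudocount 0.1), and 1676 with limma-voom and sample quality weights, which was chosen after seeing the data; leaving out 1 library gave 1 to 758, the highest without WT replicate 1. The members called were 0 in edgeR, 2 in DESeq2, 3 with quality weights and 0 to 3 with 1 library left out. Without WT replicate 1, 758 genes and 3 members changed; DESeq2 gave 1188 genes and 4 members, no filter 1707 genes and 4 members, limma on log2 FPKM 114 genes and 1 member (pseudocount 1) or 13 genes and 0 members (pseudocount 0.1), and leaving out a further library 233 to 522 genes (313 without WT replicate 2, 485 without WT replicate 3, 447 without KO replicate 1, 233 without KO replicate 2) and 1 to 3 members. Same-numbered rats did not deviate together (correlations -0.08, 0.03 and -0.08 across 18464 genes). With deviations taken from means of only 3 rats per group, this does not exclude a pairing. A replicate block gave 2 genes and 0 members.

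Signs turned for 4 members, none of which passed under any alternative run. With all 6 libraries Il1rl1 became 0.01 with limma-voom, 0.02 on log2 FPKM (pseudocount 0.1), 0.03 with the replicate block, and 0.12, 0.11 and 0.0029 without WT replicate 2, WT replicate 3 or KO replicate 3, in a range of -0.32 to 0.12 over libraries left out. Il13ra1 became -0.0055 with quality weights and -0.0042 without WT replicate 1 (range to 0.25), Arg1 -0.02 with quality weights, and Tslp -0.0095 without KO replicate 2 (range to 0.53). Without WT replicate 1, Il13ra1 became 0.02 (upper quartile), 0.00014 (stricter filter) and 0.04 (also without KO replicate 2), Arg1 -0.04 and -0.03 (also without WT replicate 3 or KO replicate 1) and Tslp -0.05 (also without KO replicate 2). The cause of these changes was not tested. Il4r, Retnla, Gata3, Il33 and Il13ra2 kept their sign under every alternative run. Of all 277 member values under an alternative, 239 kept both sign and side of the threshold. Il5ra and Il13ra2 are limited by depth.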

Other observations

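Among the 3 genes whose level across the 6 libraries was most like that of Il4r were Tnxa-ps1 and Rab7b, whose centred log2 CPM differed from its own by a root mean square of 0.0645 and 0.0737, against 0.398 for the spread of Il4r itself. Tnxa-ps1 is a tenascin X pseudogene, so its reads may be shared with similar copies. Retnla was most like Chp2, Dner and Tmem200a (0.141, 0.150 and 0.160, against a spread of 0.694). Chp2, a calcium-binding partner of sodium-proton exchangers, stood at 7.92 to 9.81 CPM in WT and at 2.62 to 5.50 CPM in KO, with KO replicate 1 the highest and KO replicate 2 the lowest of the KO libraries, as for Retnla. Gata3 was most like Tmem177, Rps10l1 and Inmt (0.0828, 0.0868 and 0.0936, against 0.338). Inmt, a lung methyltransferase, measured 22.7, 15.5 and 15.9 CPM in WT against 21.2 to 23.7 CPM in KO. These likenesses are descriptions over 6 libraries, picked as the closest of 18464 genes.

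The balance between the most abundant receptor and the most abundant cytokine of the set differed between the groups. The FPKM ratio of Il4r to Il33 within a library was 2.26, 1.90 and 1.94 in WT replicates 1 to 3 and 1.05, 0.988 and 1.21 in KO replicates 1 to 3. WT replicate 1, which stood apart for many genes, lay close to the other WT libraries on this ratio, and the groups did not overlap. That separation follows from those given above, Il4r lower and Il33 higher in every KO library, and adds no evidence to them. The ratio was looked at after the levels of both genes were known, and it has no test of its own.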
